A study of Mus musculus with 27 samples.

Results

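The suprachiasmatic nucleus (SCN), the pair of small hypothalamic nuclei that hold the central circadian clock of mammals, was compared with cerebral cortex by small-RNA sequencing of mature microRNAs (miRNAs). The comparison used 4 of the 27 libraries of the study, the SCN and cortex tissue libraries labelled replicates 1 and 2, all from mice of the C57BL/6 strain. The labels give neither sex, age, clock time nor any treatment for these tissues, and do not say whether the replicates came from separate animals or pools, so p-values measure only the spread between these libraries. Together the 4 libraries listed 727 miRNAs of the 844 in the series, and 364 were tested, those with at least 10 CPM in 2 or more of the 4 (CPM, counts per 1000000, is a miRNA's share of the miRNA reads of its library scaled to a total of 1000000). The study also sequenced hypothalamus (2 libraries of the same set), an SCN time course with 1 library at each of 11 zeitgeber times, 3 SCN neuron types (AVP, VIP, CCK), and SCN taken at CT18 under the labels CTRL and LP. Hypothalamus entered the same fit here, and the time course and the CT18 CTRL libraries were set beside the result without a test. Only miRNAs were measured, so the dissections could not be checked against the usual mRNA markers of either tissue.

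A miRNA is cut from a hairpin precursor, whose 5p or 3p arm is loaded into an Argonaute protein and guides it to messenger RNAs, which are then repressed. Pairing runs mainly through the seed, bases 2 to 8 of the mature strand, and miRNAs with the same seed share most predicted targets. The SCN consists largely of small GABAergic peptide neurons, whereas glutamatergic pyramidal neurons predominate in cortex.

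The mature strands that the differences below turn on are printed from 5′ to 3′ as RefSeq gives them for build GRCm38.p6, with the seed in capitals. The first set shows strands higher in SCN. It holds the miR-7 pair with 1 seed, miR-200b, miR-200c and miR-429 of the miR-200 group with 1 seed, and the miR-183 cluster, whose seeds differ. It also holds strands with the largest or most abundant rises.
miR-7a-5p: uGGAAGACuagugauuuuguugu
miR-7b-5p: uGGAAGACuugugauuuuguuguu
miR-7a-2-3p: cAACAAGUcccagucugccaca
miR-200b-3p: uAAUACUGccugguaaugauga
miR-200c-3p: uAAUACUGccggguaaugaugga
miR-429-3p: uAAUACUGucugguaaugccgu
miR-183-5p: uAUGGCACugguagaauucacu
miR-96-5p: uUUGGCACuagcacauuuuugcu
miR-182-5p: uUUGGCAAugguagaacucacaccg
miR-298-5p: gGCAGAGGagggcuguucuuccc
miR-204-5p: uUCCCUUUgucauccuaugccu
miR-34b-3p: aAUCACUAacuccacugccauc
miR-125a-5p: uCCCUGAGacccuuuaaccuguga
miR-125b-5p: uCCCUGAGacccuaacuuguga
miR-770-5p: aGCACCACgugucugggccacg
miR-760-3p: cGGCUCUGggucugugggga
The second set shows strands lower in SCN: brain-enriched miRNAs, miR-30a and miR-30e with their common seed, and strands among the largest falls.
miR-128-3p: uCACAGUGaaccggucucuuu
miR-9-5p: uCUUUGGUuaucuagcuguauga
miR-218-5p: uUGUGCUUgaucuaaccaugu
miR-30a-5p: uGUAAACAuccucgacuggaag
miR-30e-5p: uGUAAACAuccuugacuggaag
miR-101a-3p: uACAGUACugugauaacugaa
miR-144-3p: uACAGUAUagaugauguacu
miR-34a-5p: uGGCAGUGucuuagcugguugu

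In all 4 libraries every deposited value equalled a whole number of reads times what 1 read is worth, rounded down to a whole number. That worth was 2.79 to 5.14 on the deposited scale. Summed over the listed miRNAs, the recovered reads were 2245915 and 3585377 for SCN and 2523334 and 1946998 for cortex. Entries with equal values, such as let-7a-1-3p and let-7c-2-3p, are each counted, so these sums can slightly exceed the library depths. A floor of 3 reads, set here and not a limit of the files, which hold lower values, was 0.837 to 1.54 CPM across the tissue libraries. On the log2 scale, the 2 SCN libraries correlated with r = 0.991 across miRNAs and the 2 cortex libraries with 0.986, where miRNAs are not independent replicates. Counting intervals would cover counting error only, since no molecular identifiers are recorded.

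Of the 364 tested miRNAs, 295 (81.0%) passed an adjusted p of 0.05 in limma: 152 (41.8%) were higher in SCN and 143 (39.3%) lower. Beyond 2-fold, 114 (31.3%) were higher and 105 (28.8%) lower. In 330 (90.7%) the 2 SCN values lay wholly above or below the 2 cortex values. The median log2 difference of all tested miRNAs was 0.07, and each list below, whose members under the minimum are left out of its counts, is to be read against these shares. At the edge of the minimum, the second highest of the 4 deposited values (10 of which make 1 CPM) was 100 for miR-505-3p and miR-30c-1-3p, just inside, and 97 for miR-539-5p, miR-15a-5p and miR-499-5p, just outside. A miRNA that reaches the 10 CPM minimum in 1 tissue alone was bound to differ in level, and 38 passed through SCN alone and 21 through cortex alone. Such members support no direction of a list, so the counts below are also given for the members that reached the minimum in at least 1 library of each tissue. Among the 277 that reached the minimum in all 4 libraries, 224 (80.9%) passed, and 109 (39.4%) were higher and 115 (41.5%) lower. Because CPM values share a fixed total, each difference is relative to the rest of the library, and in bulk tissue fewer cells of a type cannot be told apart from less RNA per cell.

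**Figure D1:**
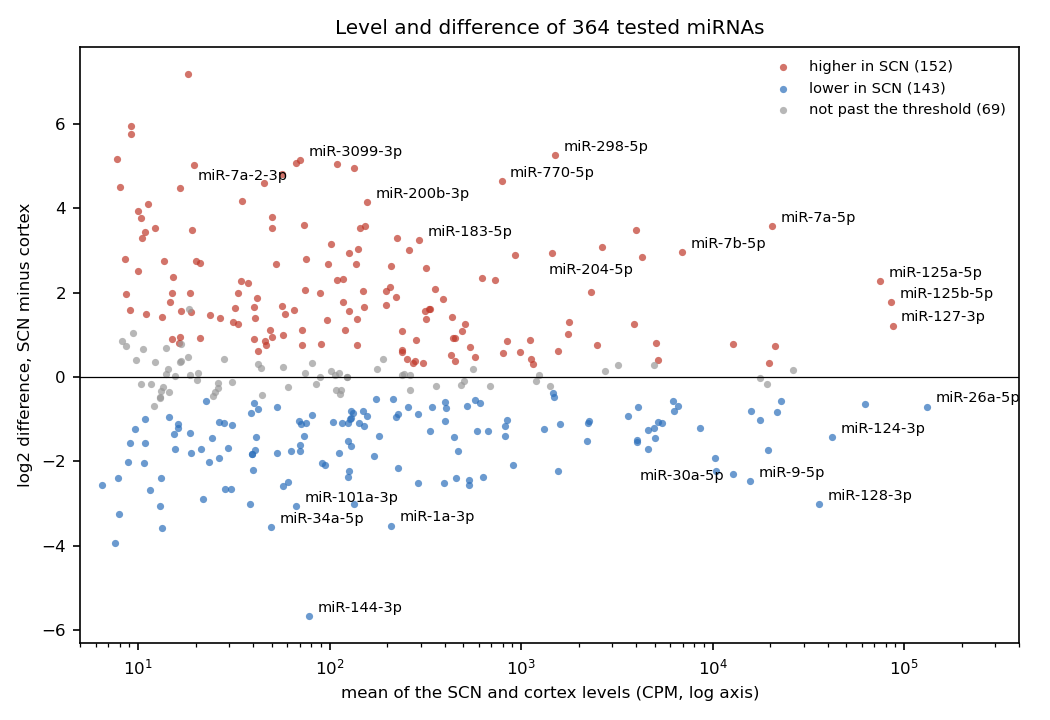
Each point is 1 of the 364 tested miRNAs, with the mean of its SCN and cortex levels (CPM, log axis) against the log2 difference, SCN minus cortex. The 152 miRNAs higher in SCN and the 143 lower ones spread over the whole range of levels, and miR-125a-5p, miR-125b-5p and miR-127-3p stand out among the most abundant.

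Of the lists compared, the lin-4 homologues had the highest summed level in SCN. This is the miR-125 group, known from developmental timing and neuronal differentiation. miR-125b-5p was at 137781 and 127363 CPM in the SCN libraries and 35910 and 42132 in cortex, 3.40-fold higher (log2 difference 1.77 ± 0.09 SE, limma adjusted p = 1.62e-07). miR-125a-5p, with the same seed, was at 127587 and 120530 CPM against 23282 and 27861, 4.85-fold higher (log2 2.28 ± 0.09 SE, limma adjusted p = 5.03e-08). Neither pair of groups overlapped, and with the rest of their list they summed to 266012 and 248431 CPM in SCN against 59638 and 70478 in cortex. Of 6 tested lin-4 homologues, 5 were higher, 1 was lower (miR-125b-2-3p, log2 -0.72), and the median log2 difference was 1.57, or 0.56 with 3 higher and 1 lower after a correction for base composition described further on. The 2 abundant members kept corrected differences of 2.04 for miR-125a-5p and 1.52 for miR-125b-5p. The hairpin of miR-125a lies at chr17:17830812-17830879 (GRCm38) on the plus strand inside Spaca6, beside let-7e and miR-99b. let-7e-5p was higher too, at 5467 and 7491 CPM against 3560 and 3744 (log2 0.81, limma adjusted p = 4.92e-04). miR-99b-5p was at 27451 and 25645 CPM against 15575 and 16236, log2 0.74 as deposited, and -1.11 after that correction.

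miR-7, a miRNA enriched in hypothalamic and endocrine cells, led the hypothalamic and endocrine list, of which 12 of 13 members were tested: 10 were higher in SCN, 1 was lower, and the median log2 difference was 3.44. Of the 10, 5 passed the minimum through SCN alone (miR-7a-2-3p, miR-200c-3p, miR-429-3p, miR-216a-5p and miR-217-5p), and of the 7 members that reached it in both tissues 5 were higher and 1 was lower, with a median of 2.69. miR-7a-5p was at 39038 and 36215 CPM in SCN and 2829 and 3509 in cortex, and miR-7b-5p at 12524 and 12061 against 1404 and 1786. All SCN values exceeded all cortex values, by 11.9-fold (log2 3.58 ± 0.10 SE, limma adjusted p = 1.50e-08) and 7.71-fold (log2 2.96 ± 0.12 SE, limma adjusted p = 4.81e-08). The opposite strands separated the miR-7a loci. miR-7a-2-3p, from the hairpin at chr7:78888277-78888373, was at 139 and 119 CPM in SCN and 2.7 and 5.1 in cortex, where it rested on 7 and 10 reads (log2 5.08 ± 0.31 SE, limma adjusted p = 5.65e-07). miR-7a-1-3p was lower in SCN, with 11.1 and 15 CPM in SCN and 33.7 and 36.9 in cortex (log2 -1.44 ± 0.26 SE, limma adjusted p = 7.74e-04). Since miR-7a-5p is the same strand from either locus, its reads cannot be assigned to one of them.

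The miR-200 group, known from epithelia, olfactory tissue and endocrine cells, was at low levels in cortex. miR-200b-3p was at 271 and 324 CPM in SCN against 14.2 and 19.5 (17.7-fold, log2 4.15 ± 0.26 SE, limma adjusted p = 6.79e-07). miR-200c-3p was at 79.7 and 96 CPM against 3.5 and 3.5, the latter 9 and 7 reads (log2 4.60 ± 0.39 SE, limma adjusted p = 4.67e-06). Neither member's groups overlapped. Of the same list, miR-200a-3p (log2 2.33) and miR-375-3p (2.69) were also higher. The calls of 3 more rested on few cortex reads: miR-429-3p had 47 and 73 reads in SCN against 1 and 7, miR-216a-5p 41 and 70 against 3 and 6, and miR-217-5p 44 and 58 against 0 and 2. miR-141-3p, at a log2 difference of 1.61, was not past the threshold.

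All 3 tested members of the miR-183 cluster, which is expressed together in sensory organs, were higher in SCN. The cluster lies on the minus strand of chromosome 6 outside annotated genes, with miR-183 at chr6:30169668-30169737, and its list had a median log2 difference of 3.24. miR-183-5p was at 494 and 564 CPM in SCN and 68.1 and 45.7 in cortex (9.30-fold, log2 3.24 ± 0.21 SE, limma adjusted p = 8.74e-07). The same comparison gave 275 and 292 against 22.9 and 24.1 CPM for miR-182-5p, a log2 difference of 3.59 ± 0.15 SE (limma adjusted p = 6.35e-08). miR-96-5p was closer between the tissues, at 139.9 and 143 against 41.6 and 29.8 CPM (log2 2.0 ± 0.19 SE, limma adjusted p = 1.06e-05), and in all 3 the groups did not overlap.

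miRNAs of the Gnas region, an imprinted stretch of distal chromosome 2, gave the largest rise among miRNAs above 50 CPM. miR-298-5p, from chr2:174267504-174267585 on the minus strand between annotated genes, was at 3196 and 2698 CPM in SCN and 78.1 and 75 in cortex, 38.5-fold apart (log2 5.26 ± 0.12 SE, limma adjusted p = 4.35e-09). Its neighbours miR-296-3p (168 and 105 against 8.3 and 14.3 CPM, log2 3.59) and miR-296-5p (216 and 124 against 21 and 30.8, log2 2.68) were higher as well, so that all 3 tested members were, with a median of 3.59 (1.15 after the correction for base composition, with 2 higher and 0 lower). All 5 tested miRNAs from the introns of Htr2c, the gene of a serotonin receptor, were higher, with a median of 2.0, and the 3 of them that reached the minimum in both tissues had the same median. miR-1264-3p was at 199 and 167 CPM against 20.6 and 20 (log2 3.16 ± 0.17 SE, limma adjusted p = 2.69e-07). miR-448-5p passed through SCN alone, at 14.7 and 16.4 CPM against 0.700 and 0.500, the latter 2 reads and 1 read.

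Other large rises came from single loci, most of them inside protein-coding genes. miR-149-5p, in an intron of Gpc1, was at 8040 and 6529 CPM in SCN and 597 and 694 in cortex (11.3-fold, log2 3.49 ± 0.13 SE, limma adjusted p = 4.14e-08). miR-3099-3p, in an intron of the imprinted Usp29, was at 133 and 141 CPM against 3.1 and 4.6 on 8 and 9 cortex reads (log2 5.14 ± 0.26 SE, limma adjusted p = 1.90e-07). miR-224-5p in Gabre, a GABA-A receptor gene, had a log2 difference of 4.17 on 7 and 9 cortex reads, miR-672-5p in Nexmif 3.53, and miR-1224-5p in Vwa5b2 3.79. miR-760-3p, from a non-coding transcript of chromosome 3, was at 113 and 104 CPM against 4.7 and 3.0, the latter 12 and 6 reads (log2 4.82, limma adjusted p = 5.08e-07). miR-3099-3p, miR-224-5p, miR-1224-5p and miR-760-3p passed the 10 CPM minimum through SCN alone, so they were bound to differ in level.

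**Figure D2:**
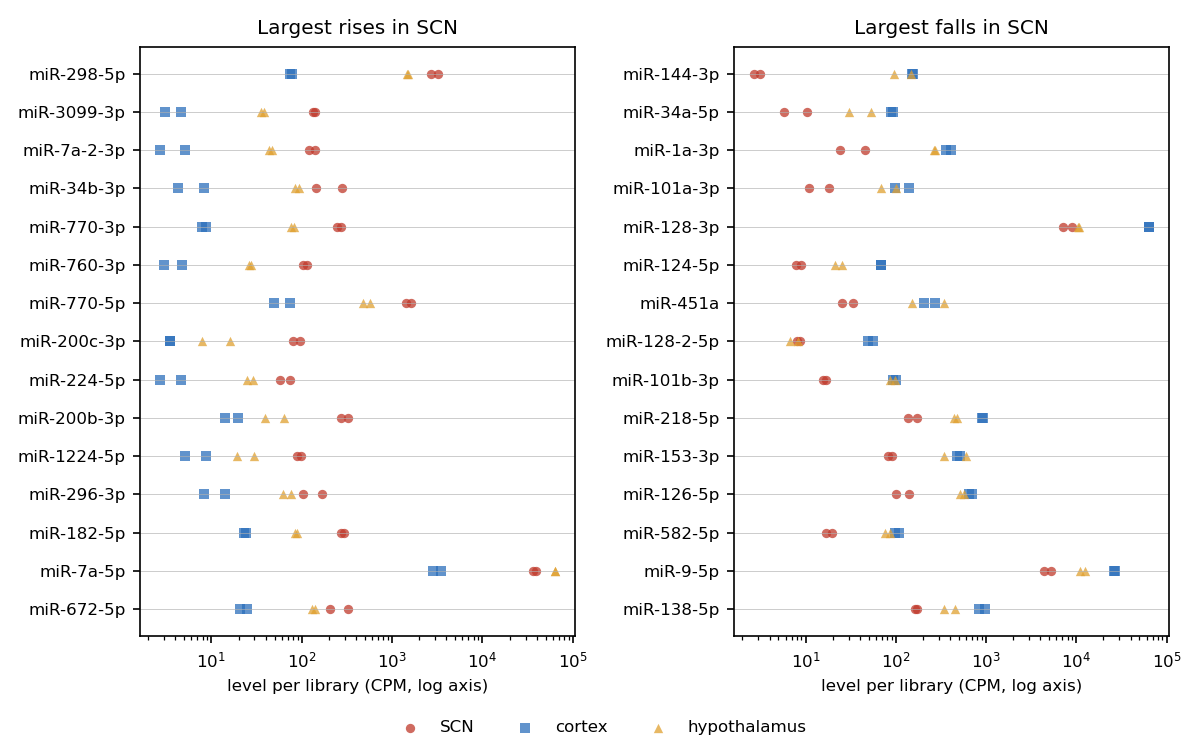
Levels in CPM (log axis) of the miRNAs with the 15 strongest rises and the 15 strongest falls, all past the threshold and at a mean of at least 50 CPM in the higher tissue, with 1 symbol per library for SCN, cortex and hypothalamus. The rows were chosen to have no overlap between SCN and cortex. Hypothalamus lies above SCN for miR-7a-5p.

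The neuronal and synaptic list ran the other way: of 19 tested members, 15 were lower in SCN, 3 were higher, and the median log2 difference was -1.79. The 16 that reached the minimum in both tissues held 12 lower and 3 higher members, with a median of -1.62. miR-128-3p, a brain miRNA with a role in neuronal excitability, was at 7056 and 8861 CPM in SCN and 64648 and 63921 in cortex, 8.08-fold lower (log2 -3.02 ± 0.11 SE, limma adjusted p = 3.48e-08). miR-9-5p, known from neural progenitors and neurons, was at 4387 and 5278 CPM against 27162 and 25837 (5.48-fold lower, log2 -2.46 ± 0.11 SE, limma adjusted p = 6.55e-08). The cortex values were several times the SCN values in every pairing of libraries for both. miR-124-3p, the canonical neuronal miRNA, was at 21515 and 24162 CPM against 63894 and 58858 (log2 -1.43 ± 0.08 SE, limma adjusted p = 4.32e-07). miR-218-5p, enriched in motor and other neurons, was at 138 and 170.5 CPM against 899 and 923 (5.90-fold lower, log2 -2.57 ± 0.14 SE). miR-153-3p (log2 -2.51), miR-138-5p (-2.44), which limits dendritic spine size, and miR-137-3p (-2.37) were lower by similar amounts. The 3 higher members, miR-129-2-3p (0.88), miR-384-5p (0.59) and miR-129-5p (0.38), each stayed under 2-fold, and miR-129-5p was at -0.62 after the correction for base composition. Under that correction, 4 of the 15 list members with a sequence were higher and 11 lower, with a median of -1.53.

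Of 11 tested activity-regulated miRNAs, 8 were lower and 2 higher, with a median log2 difference of -1.03. miR-132-3p, which CREB induces and which responds to light in the SCN, was at 499.9 and 613 CPM in SCN and 1124 and 1132 in cortex (log2 -1.03 ± 0.13 SE, limma adjusted p = 7.15e-05). Its cluster partner miR-212-5p was at 3301 and 2890 CPM against 4866 and 5205 (log2 -0.70), and all 4 strands of the pair were lower. miR-134-5p, which acts on dendritic spines, was higher, at 170.2 and 193 CPM against 33.3 and 40 (log2 2.31 ± 0.17 SE, limma adjusted p = 1.78e-06). The X-linked neighbours miR-221-3p (log2 -1.23) and miR-222-3p (0.62) share a seed and were called in opposite directions. miR-34a-5p, a p53 target, was at 5.7 and 10.3 CPM in SCN and 93.1 and 88.8 in cortex, 11.4-fold lower (log2 -3.55 ± 0.34 SE, limma adjusted p = 1.06e-05).

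Several broadly expressed families were lower in SCN. All 8 tested members of the miR-23, miR-27 and miR-24 clusters were lower, with a median of -1.97, and so were the 5 of them that reached the minimum in both tissues (median -1.73). miR-27b-3p, the most abundant, was at 9005 and 8924 CPM in SCN and 29354 and 30274 in cortex (log2 -1.73 ± 0.08 SE, limma adjusted p = 9.59e-08). Of 11 tested miR-30 strands 8 were lower and 0 higher (7 and 0 of the 9 that reached the minimum in both tissues), but the size varied within the family. miR-30a-5p was at 4735 and 3934 CPM against 22287 and 20009 (4.88-fold lower, log2 -2.29 ± 0.11 SE), whereas miR-30d-5p was at 20444 and 15988 against 20794 and 19643 (log2 -0.16 ± 0.12 SE, limma adjusted p = 0.22). Of 4 tested miR-29 strands 3 were lower, and both tested miR-101 strands were, with miR-101a-3p at 18.2 and 10.8 CPM against 139.9 and 98.6 (log2 -3.06 ± 0.30 SE). miR-26a-5p, the most abundant cortex miRNA, was at 101317 and 99207 CPM in SCN against 166485 and 159968 (log2 -0.70 ± 0.06 SE, limma adjusted p = 3.83e-06).

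Other families had members called in both directions. Of 9 tested let-7 and miR-98 strands 3 were higher and 4 lower (median -0.01), but 7 higher and 2 lower (median 0.51) after the correction for base composition. Uncorrected, let-7g-5p had a log2 difference of -1.02 and let-7e-5p 0.81. Of 4 tested miR-99 and miR-100 strands 1 was higher and 2 lower (median 0.03), against 0 higher and 4 lower (median -1.08) after the correction. miR-99a-5p was at 49615 and 48082 CPM in SCN against 76958 and 74221. Of 6 tested miR-181 strands 1 was higher and 3 lower, and the higher one, miR-181d-5p, had an adjusted p of 0.049 in limma. Of 8 tested strands of the miR-17 to miR-92a clusters and their paralogues 5 were lower and 1 higher, and of the 5 that reached the minimum in both tissues 2 were lower and 1 higher (median -0.18). The higher one was miR-92a-3p, at 658 and 612 CPM against 236 and 238 (log2 1.42 ± 0.13 SE).

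Lists of miRNAs known from other cell types also differed between the tissues, and their part in the results above was not tested. All 6 tested choroid plexus and ciliated-cell miRNAs were higher in SCN, with a median of 3.66 and a summed level of 8710 and 8942 CPM against 1338 and 1180. Of the 6, 4 passed the minimum through SCN alone (miR-204-3p, miR-211-5p, miR-34b-3p and miR-34c-3p), and the 2 that reached it in both tissues, miR-204-5p and miR-34c-5p, had a median of 2.60. Most of that sum was miR-204-5p, from an intron of Trpm3 and known from choroid plexus, at 7045 and 7910 CPM against 1101 and 989 (7.16-fold, log2 2.84 ± 0.11 SE, limma adjusted p = 4.14e-08). The other SCN tissue libraries held it below the SCN pair, at 2593 to 4696 CPM in the time course. In the CT18 CTRL libraries it was at 1173 and 1515 CPM, near the cortex values. Of the neuron-type libraries, those of VIP neurons held it at 7563 and 9453 CPM, those of CCK neurons 1255 and 1647, and those of AVP neurons 76.4 and 81.6. miR-34b-3p, of a locus known from multiciliated cells, was at 281 and 144 CPM against 4.3 and 8.2 (log2 5.06 ± 0.36 SE, limma adjusted p = 1.48e-06), with 11 and 16 cortex reads. miR-449a-5p, a ciliated-cell miRNA of the same list, was at 0, the value given to unlisted miRNAs, in both SCN libraries and in 1 cortex library. All 6 tested vascular miRNAs were lower (median -1.51), as were the 5 that reached the minimum in both tissues, summing to 3916 and 3942 CPM in SCN against 11027 and 11564 in cortex. miR-126-3p, of endothelium, was at 1079 and 1224 CPM in SCN and 3037 and 3541 in cortex (log2 -1.51 ± 0.12 SE).

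Blood-cell markers split. miR-144-3p, an erythroid miRNA, was at 3.1 and 2.7 CPM in SCN, on 7 and 10 reads, and 154 and 152 in cortex, the largest fall among miRNAs above 50 CPM (52.7-fold lower, log2 -5.68 ± 0.24 SE, limma adjusted p = 6.35e-08). miR-451a, from the same erythroid cluster, was at 33.8 and 25.6 CPM against 208 and 269 (log2 -3.0 ± 0.34 SE). miR-486-5p, also known from erythrocytes, was higher in SCN, at 544 and 454 CPM against 131 and 201 (log2 1.61). In the neuron-type libraries it was at 2107 and 2164 CPM (AVP), 930 and 1153 (VIP) and 980 and 1015 (CCK). miR-144-3p was at most 0.3 CPM in those libraries. How much of the miR-486-5p signal in tissue came from blood was not tested. miR-486-5p differs by at most 0.610% in any of the 4 libraries from the entry miR-3107-5p, and the pair is uncertain. Of the 5 tested entries of this list 2, that pair, were higher and 3 lower, 2 of the 3 (the miR-144 strands) having passed the minimum through cortex alone. Of 4 tested microglia and leukocyte miRNAs 2 were higher and 2 lower, with miR-342-3p at 5539 and 5404 CPM against 2350 and 2234 and miR-21a-5p at 189.8 and 220.4 against 1122 and 1004. The neuron-type libraries held miR-342-3p too, at 7262 and 7762 CPM (VIP), 1932 and 2547 (CCK) and 780 and 1116 (AVP). Its cell source in tissue was not tested. The leukocyte marker miR-142-3p was at 0, the value given to unlisted miRNAs, in both SCN libraries and in 1 cortex library.

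Among 4 tested oligodendrocyte miRNAs 1 was higher and 2 lower, of which miR-219-5p passed through cortex alone, and their sums of 1005 and 1551 CPM in SCN overlapped 1458 and 1953 in cortex. miR-338-3p, which promotes oligodendrocyte differentiation, was at 387 and 516 CPM in SCN and 1408 and 996 in cortex (log2 -1.41 ± 0.19 SE), and miR-219-5p at 7.5 and 3.3 against 44.8 and 31.8. The opposite strand miR-219-2-3p was at 435 and 769 CPM against 328 and 282. Both tested muscle miRNAs were lower, miR-1a-3p at 45.4 and 24.2 CPM against 409 and 358 (11-fold lower, log2 -3.52 ± 0.26 SE). Of 3 tested liver and gut miRNAs 1 was higher and 2 lower, and miR-122-5p, the liver miRNA, was at 21.8 and 25.9 CPM in SCN against 7.5 and 4.6, having passed the minimum through SCN alone.

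The imprinted Dlk1-Dio3 region of chromosome 12 holds many miRNA hairpins, which are expressed from the maternal chromosome and are described here as 2 lists in turn. On the Rtl1 side, of 19 tested strands 10 were higher in SCN, 5 lower and 4 not past the threshold, with a median log2 difference of 0.78 and a sum of 137534 and 162326 CPM against 76457 and 77855. Of the 17 that reached the minimum in both tissues 8 were higher and 5 lower, with a median of 0.23. The sum was mostly miR-127-3p, antisense to the Rtl1 coding exon at chr12:109592846-109592915, with 107324 and 137264 CPM in SCN and 51303 and 53043 in cortex (2.34-fold, log2 1.22 ± 0.10 SE, limma adjusted p = 5.10e-06). That difference was -0.03 after the correction for base composition, under which the list had 5 higher and 10 lower members and a median of -0.74, so its direction turned with the correction. The largest rise was miR-770 in an exon of Meg3, at chr12:109563692-109563785. miR-770-5p was at 1611 and 1430 CPM in SCN and 49.9 and 73.4 in cortex (24.7-fold, log2 4.65 ± 0.19 SE), and miR-770-3p at 274 and 244 against 7.9 and 8.7 (log2 4.95 ± 0.18 SE). miR-770-3p passed the minimum through SCN alone, so it was bound to differ in level. miR-433-3p, also antisense to Rtl1, was at 1677 and 1584 CPM against 215 and 227 (log2 2.88 ± 0.11 SE, limma adjusted p = 4.81e-08). Both strands of the neighbouring miR-136 were lower, miR-136-3p at 2405 and 1946 CPM against 7497 and 6633 (log2 -1.70 ± 0.17 SE).

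Further along, the miR-379 to miR-410 list was balanced, with 15 of 43 tested strands higher, 14 lower, 14 not past the threshold and a median of -0.10. Its sums, 18880 and 19219 CPM in SCN and 19448 and 20476 in cortex, lay close together. Within it miR-666-5p (429.5 and 496 against 49.1 and 67.3 CPM, log2 3.0), miR-667-3p (log2 2.68) and miR-668-3p (2.58) were higher in SCN. miR-541-3p (-2.05) and miR-544-5p (-1.76) were lower. Of 18 hairpin clusters with at least 3 tested strands, joined where hairpins lay within 10000 bases on 1 strand, 14 held calls in 1 direction only and 4 in both. The 4 were let-7d with let-7a, miR-221 with miR-222, and 2 of the 3 clusters of this region. The third, of miR-341, miR-1188 and miR-370, had 3 strands higher and 0 lower. Among the 14, the clusters of miR-181d and miR-191 held 1 call each, so they could not hold both directions. Others held strands that passed the minimum through 1 tissue alone, such as miR-429-3p and the miR-144 strands, and were bound to differ in level. The count was not compared with that of strands grouped otherwise. In the let-7 cluster the only lower call was let-7a-1-3p, whose values cannot be told apart from those of let-7c-2-3p, so its locus is uncertain.

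The 2 arms of a hairpin often differed between the tissues by unequal amounts. In 86 precursors with both arms measured, the ratio of 5p to 3p passed an adjusted p of 0.05 in limma in 49 (57.0%). Each arm had to reach 10 CPM in at least 2 of the 4 libraries, so an arm could pass through 1 tissue alone. The counts of pairs are not split by this. The 3p share was higher in SCN in 38 (44.2%) and the 5p share in 11 (12.8%), and the median log2 change of the ratio was -0.58. With both arms at 1 CPM or more the split was 19 higher for 5p and 34 for 3p among 159 pairs. After correction for base composition in 69 pairs it was 13 and 20, against 10 and 29 uncorrected in the same pairs. In 47 pairs both arms were called in the same direction, and in 9 in opposite directions.

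miR-431, of the Rtl1 side, had 1 arm up and 1 down: the 5p arm made 47.4% and 46.8% of its reads in the SCN libraries and 10.6% and 15.3% in cortex (log2 change of the ratio 2.58 ± 0.27 SE, limma adjusted p = 6.81e-04). miR-434, its neighbour, moved oppositely, with a 5p share of 15.2% and 16.2% in SCN and 44.7% and 40.4% in cortex (log2 -1.99 ± 0.20 SE, limma adjusted p = 6.58e-04). miR-434-5p was lower (log2 -1.21) and miR-434-3p higher (0.78), and neither arm's share overlapped between tissues. For miR-106b, of the Mcm7 intron, the 5p share was 8.32% and 7.86% in SCN and 40.6% and 33.6% in cortex (log2 -2.71 ± 0.25 SE). The erythroid miR-144 had a 5p share of 41.5% and 60.3% in SCN against 11.2% and 11.9% (log2 2.99 ± 0.39 SE), with few SCN reads, as given above. The 5p share of miR-409 was 85.7% and 87.2% against 96.4% and 96.4%, and that of miR-384, at an X-linked locus, 77.4% and 81.8% against 60.5% and 61.4%. Of the other large changes, the ratio moved toward 5p for miR-30d (log2 2.90 ± 0.54 SE, on 10 and 6 SCN reads of its 3p arm) and miR-541 (2.34 ± 0.29 SE). It moved toward 3p for miR-140 (-2.13 ± 0.31 SE), miR-433 (-2.08 ± 0.21 SE) and miR-34c (-2.11 ± 0.31 SE, on 3 and 3 cortex reads of its 3p arm). Of the arms of these large changes, miR-431-5p and miR-34c-3p passed the 10 CPM minimum through SCN alone. miR-106b-5p, miR-140-5p, miR-30d-3p and both miR-144 arms passed through cortex alone. Such arms were bound to differ in level, so the changes of their ratios support no direction. By mean ratio the more abundant arm itself differed between the tissues in 7 precursors. In 5 of them, miR-339, miR-340, miR-369, miR-582 and miR-673, it did so in every library. In the other two, miR-144 and miR-329, 1 SCN library had the same major arm as cortex, with a 5p share of 45.2% and 51.7% in SCN for miR-329 against 76.3% and 69.8%.

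**Figure D3:**
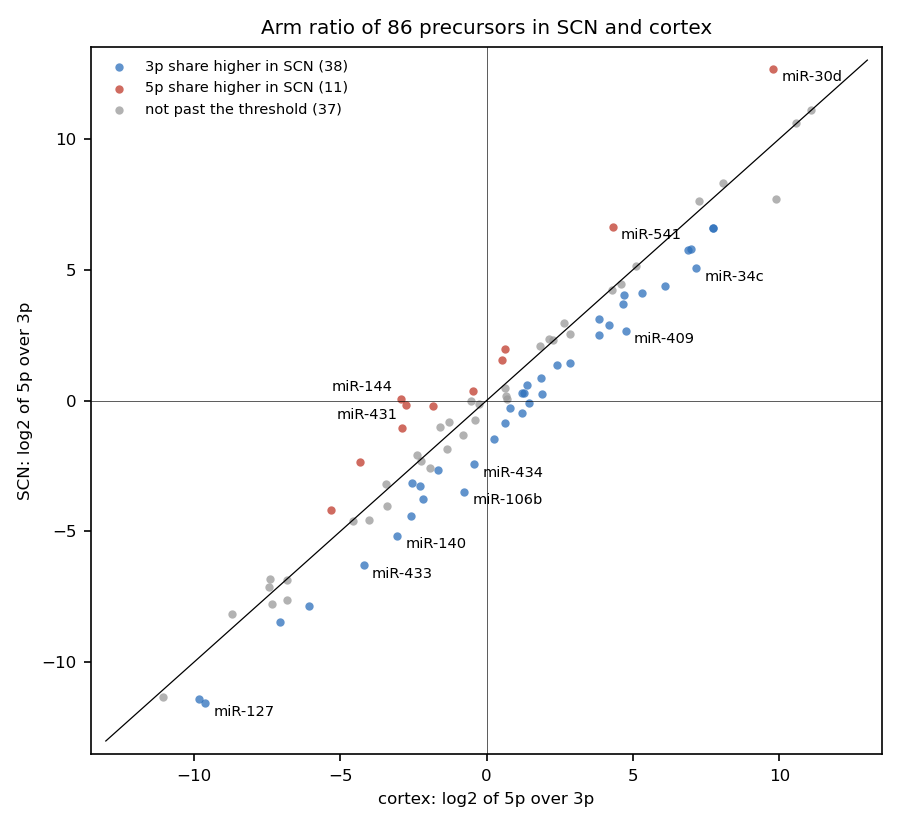
Mean log2 ratio of the 5p to the 3p arm of 86 precursors, cortex on the horizontal and SCN on the vertical axis, with the line of equal ratios. Of the 49 coloured precursors 38 lie below the line, with a higher 3p share in SCN, and 11 above it.

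Summed over miRNAs with the same seed, 43 of 54 families (79.6%) passed the threshold in limma, 14 (25.9%) higher and 29 (53.7%) lower in SCN. Sums keep 1 entry per identical mature sequence and leave out miRNAs without a RefSeq sequence, among them miR-34c-5p. The GGAAGAC seed of miR-7a-5p and miR-7b-5p summed to 51562 and 48276 CPM in SCN against 4232 and 5295 (10.5-fold, log2 3.40). The AAUACUG seed of miR-200b, miR-200c and miR-429 summed to 372 and 441 CPM against 18 and 26.5 (18.3-fold, log2 4.21). The 3p strands of miR-34b and miR-34c, seed AUCACUA, summed to 321 and 168 CPM against 5.4 and 9.7 (log2 4.98), and miR-204 with miR-211, seed UCCCUUU, to 7066 and 7935 against 1108 and 990.1 (log2 2.84). Falls were led by the GGCAGUG seed of miR-34a-5p (log2 -3.47), the GAUAUGU seed of miR-190 (-2.84, with sums of 1.2 and 3.5 CPM in SCN, near the floor of 3 reads) and the UGCCUAC seed of the miR-24 5p strands (-2.60). The AUCACUA sum reached the 10 CPM minimum through SCN alone, and the GAUAUGU and UGCCUAC sums through cortex alone. Those sums were bound to differ in level. The GGCAGUG sum does not stand for the whole miR-34 family: miR-34c-5p, a known member left out of it, was at 1276 and 811 CPM in SCN against 223 and 177 (log2 2.36 ± 0.23 SE, limma adjusted p = 1.18e-05), far above the 5.7 and 10.3 and 93.1 and 88.8 CPM of miR-34a-5p. Members were called in both directions in 7 families: miR-181, miR-99 and miR-100, miR-15 and miR-16, miR-708 with miR-28a, let-7, miR-221 and miR-222, and miR-30 with miR-384-5p.

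The difference between the tissues moved with the base composition of the mature strand, and its part in the results was not tested beyond the correction given here. Over the 315 tested miRNAs (86.5%) with a RefSeq sequence, the log2 difference and the percentage of G and C correlated across miRNAs with r = 0.487 (Spearman's rho 0.483), as a description. Among the 55 miRNAs with at most 40% G and C, 10 were higher in SCN and 39 lower, with a median log2 difference of -1.43. Among the 51 above 60%, 43 were higher and 2 lower, with a median of 1.91. Between the 2 SCN libraries the same correlation was 0.161, and between the 2 cortex libraries -0.104. Weighted by signal, the mean composition was 48.1% and 48.3% in SCN, 45.2% and 45.4% in cortex, and 45.6% and 45.8% in hypothalamus.

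A loess correction for composition, added after the data were seen, changed the split of these 315 miRNAs from 126 higher and 126 lower to 106 and 145. Called higher in both were 90 and lower in both 114, while 14 went from higher to lower and 5 from lower to higher. miR-7a-5p, with 34.8% G and C, had a corrected log2 difference of 4.42, and miR-200b-3p, with 36.4%, one of 4.87, both larger than uncorrected. Strands rich in G and C came out smaller, miR-298-5p at 3.20, miR-770-5p at 2.20, miR-296-3p at 1.15 and miR-666-5p at 0.56. Several falls moved little, with miR-128-3p at -3.05, miR-30a-5p at -2.20 and miR-27b-3p at -1.76. Other falls shrank: the median of the miR-29 list went from -1.45 to -0.85 and that of miR-101 from -2.82 to -2.19. In these 2 lists 3 and 2 strands were still called lower. The median of the miR-23, miR-27 and miR-24 list went the other way, from -1.97 over 8 strands to -2.54 over the 7 with a sequence. miR-191-5p, not past the threshold as deposited, went from 0.15 to -0.27, and let-7f-5p from -0.82 to 0.28.

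**Figure D4:**
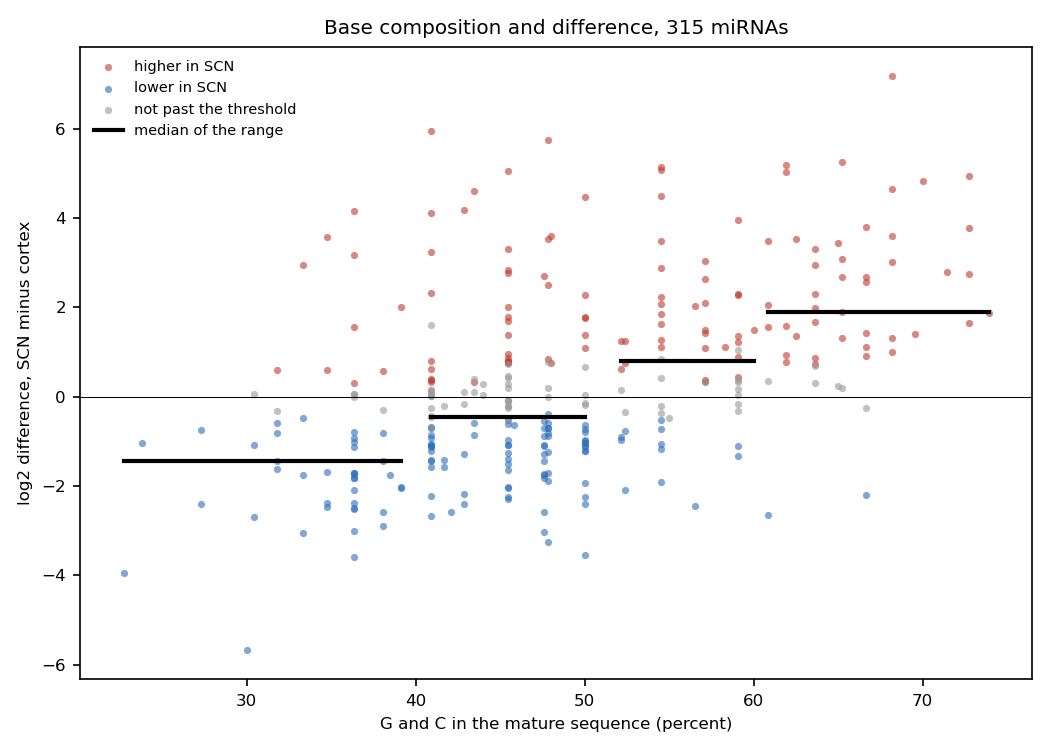
Percentage of G and C in the mature sequence against the log2 difference, SCN minus cortex, for 315 tested miRNAs, with black bars at the median of 4 composition ranges. The median is -1.43 in the lowest range and 1.91 in the highest.

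Hypothalamus, the region that contains the SCN, was sequenced beside it. In the same fit 263 of the 364 miRNAs (72.3%) differed between SCN and hypothalamus, 106 (29.1%) higher and 157 (43.1%) lower in SCN. That difference also moved with base composition, with a median log2 of -1.54 at or below 40% G and C and 1.12 above 60%. Its part was not tested, and no correction was run for this contrast. Of the miRNAs named next, miR-7a-5p, miR-7b-5p, miR-200b-3p, miR-1264-3p, miR-144-3p and miR-21a-5p lie in the lower range. miR-298-5p and miR-149-5p lie in the upper. miR-298-5p was at 1448 and 1482 CPM in hypothalamus, under SCN by a log2 difference of 1.0 (limma adjusted p = 9.42e-05). miR-7a-5p was highest there, at 63115 and 63818 CPM, so SCN was lower than hypothalamus (log2 -0.76, limma adjusted p = 1.93e-04), as it was for miR-7b-5p (-0.48). miR-125a-5p, at 35526 and 33275 CPM in hypothalamus, was higher in SCN (log2 1.85, limma adjusted p = 1.37e-06). miR-200b-3p (39 and 63.1 CPM in hypothalamus, log2 2.58), miR-183-5p (log2 1.62) and miR-149-5p (1.87) were higher in SCN than in hypothalamus as well. For the Htr2c-intron miR-1264-3p, at 217 and 256 CPM in hypothalamus, the difference from SCN was not past the threshold (log2 -0.37). Among the falls, miR-128-3p was at 10840 and 10553 CPM in hypothalamus and only slightly lower in SCN (log2 -0.44), whereas miR-144-3p (-5.31), miR-1a-3p (-3.03) and miR-21a-5p (-2.68) were far lower in SCN than in either tissue.

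The other SCN tissue libraries, which belong to other experiments of the study, are given side by side with no test. miR-298-5p ran from 1028 to 1944 CPM over the 11 time points and was at 940.4 and 1201 in the CT18 CTRL libraries, in each case above its cortex values of 78.1 and 75. miR-770-5p, at 545 to 1727 CPM in the time course and 1402 and 1767 at CT18, was likewise above cortex throughout. So was miR-34b-3p, at 72 to 444 CPM in the time course and 253 and 408 at CT18. miR-125a-5p was at 96276 to 159267 CPM in the time course and 104913 and 110192 at CT18.

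For other large rises the SCN libraries did not match one another. miR-200b-3p, at 271 and 324 CPM in the 2 SCN libraries of the comparison, was at 1.3 to 32.9 (median 6.5) in the time course and 5.0 and 6.2 at CT18, beside 14.2 and 19.5 in cortex. miR-200c-3p was at 0.2 to 16.9 CPM (median 3.1) in the time course and 1.6 and 4.1 at CT18, beside 3.5 and 3.5 in cortex. miR-183-5p was at 21.5 to 206 CPM (median 54) in the time course and 18.5 and 26.9 at CT18, where cortex had 68.1 and 45.7. None of the time-course and CT18 CTRL libraries reached the SCN pair in these 3 miRNAs. miR-7a-5p ran from 9000 to 40337 CPM (median 13077) in the time course, yet was at 1642 and 2356 at CT18, under the cortex values.

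Several large falls were low in the other SCN libraries too. miR-128-3p was at 4548 to 10588 CPM in the time course and 12429 and 16755 at CT18, against 64648 and 63921 in cortex. miR-34a-5p was at 2.0 to 10.7 CPM in the time course and 2.5 and 5.6 at CT18, and miR-9-5p at 2134 to 8428 and 9222 and 9828, all under cortex. miR-144-3p, though under cortex throughout, was higher there than in the SCN pair, at 8.8 to 35.3 CPM in the time course and 23 and 25.3 at CT18. miR-218-5p differed between the SCN sets, at 115 to 416 CPM in the time course and 2.5 and 4.5 at CT18. miR-127-3p was at 79276 to 123610 CPM in the time course and 14518 and 17016 at CT18, the latter under the cortex values of 51303 and 53043.

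**Figure D5:**
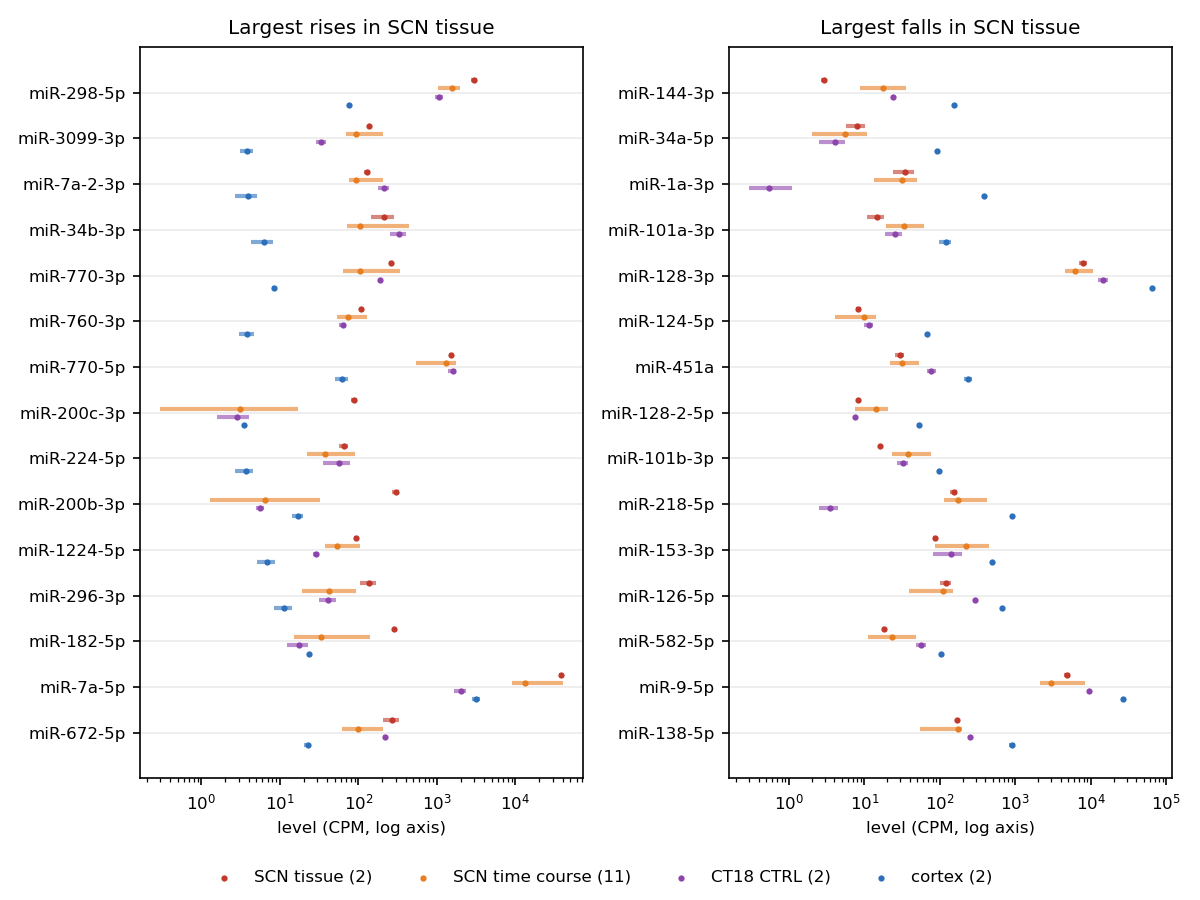
Levels in CPM (log axis) of the 15 largest rises and 15 largest falls in SCN tissue, with bars from the lowest to the highest library and a dot at the median for the SCN pair, the 11 time-course libraries, the 2 CT18 CTRL libraries and cortex; levels under 0.3 CPM are drawn at 0.3. miR-200b-3p and miR-200c-3p are high in the SCN pair alone, and miR-298-5p and miR-770-5p are above cortex in all SCN sets.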

How the data were processed

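Small-RNA libraries of SCN, cortex and hypothalamus tissue were grouped by the labels alone. Total RNA from snap-frozen tissue was extracted with Trizol and made into Illumina libraries, per the labels' protocols. Bowtie and the build GRCm38 (mm10) are named per the submitters' processing notes, without a role or version. The deposited signal per mature miRNA is a read number brought to a common total of 10000000, unlisted miRNAs count as 0, and CPM is the deposited signal divided by 10. Every signal value equalled a whole number of reads times a fixed step, rounded down to a whole number, so reads were recovered in the 27 files.

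limma 3.58.1 (limma-trend, R 4.3.3) was fitted to log2(value + 1) of the 6 tissue libraries together, with 3 residual degrees of freedom, for miRNAs with a value of at least 100 in at least 2 of the 4 SCN and cortex libraries. Tests were two-sided, with Benjamini-Hochberg adjustment over all 364 miRNAs, 86 arm pairs or 54 seed families. The scaling limits precision to relative levels, and log2(value + 1) understates changes of low miRNAs. Folds are ratios of mean CPM. The fit was checked on simulated data. Alternatives were edgeR 4.0.16 and DESeq2 1.42.0 on recovered reads, other scalings, filters and pseudocounts, a replicate block, leaving out libraries, and a loess correction for G and C (span 0.75).

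The members and the 24 lists were chosen with earlier results of these data known. Named were the 15 strongest rises and 15 strongest falls that passed, without overlap and with a mean of at least 50 CPM in the higher tissue, the 10 most abundant miRNAs of each tissue, the 10 largest differences of level each way, up to 4 members per list with the smallest p, the 8 largest arm and seed-family changes, and families called in both directions. Other miRNAs were named after their values were seen. Sequences (RefSeq, GRCm38.p6) matched 694 of the 844 miRNAs by name, and annotation is GENCODE M21.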

Additional observations from a re-analysis of the deposited data

How the results depend on the processing

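The count of 295 miRNAs past the threshold became 181 of 209 with a minimum of 100 CPM, and 272 to 287 when 1 SCN or cortex library was left out. Of 86 arm pairs 49 were called, and 23 of 30 with both arms at 100 CPM or more, with 38 to 52 when 1 library was left out. Of 54 seed families 43 were called, and 26 of 36 without the most abundant miRNA of each, with 40 to 41 when 1 library was left out. With the replicate number as a block, which is only a shared number (correlation of deviations -0.0136), 294 miRNAs, 51 arm pairs and 42 families were called.

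edgeR called 296 (154 higher and 142 lower), DESeq2 281 (142 and 139), quantile normalization 291 (136 and 155), and no minimum 370 of 630. Of the 105 named miRNAs, 82 passed the stricter minimum and 90 had a sequence for the correction for G and C. Of the 70 that were fitted under every alternative, 59 kept direction and side of the threshold in all. Leaving out that minimum and that correction, 96 of the 105 did. That correction, chosen after seeing the data, reversed let-7f-5p (0.28), miR-127-3p (-0.029), miR-191-5p (-0.27), miR-99b-3p (-1.15) and miR-99b-5p (-1.11). miR-29b-2-5p, not called, went to -0.0196 with median-ratio scaling, -0.32 with quantile normalization and -0.033 in DESeq2, and lay between -0.24 and 0.30 when 1 library was left out. The cause was not tested. Levels on few reads are limited by depth, as in cortex those of miR-448-5p (2 reads and 1 read) and miR-200c-3p (9 and 7 reads).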

Other observations

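Among miRNAs outside the lists, chosen after their values were seen, miR-346-5p from an intron of Grid1, a glutamate receptor gene, was at 4778 and 4724 CPM in SCN and 526 and 596 in cortex. The groups did not overlap (8.46-fold, log2 3.08 ± 0.11 SE, limma adjusted p = 3.48e-08), and the log2 difference was 1.03 after the correction for G and C. miR-328-3p was at 4146 and 3272 CPM against 804 and 1046 (log2 2.01 ± 0.16 SE), and miR-92b-3p, a miRNA of neural progenitors, at 2990 and 2132 against 286 and 375 (log2 2.95 ± 0.18 SE). Both strands of miR-877, a mirtron spliced from an intron of Abcf1, were higher in SCN. miR-877-5p was at 20 and 19.8 CPM against 1.5 and 2.0 in cortex, and miR-877-3p at 25.8 and 12 against 1.1 and 1.0, near the floor of 3 reads. Both strands passed the 10 CPM minimum through SCN alone, so they were bound to differ in level.

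Members of the miR-15 and miR-16 seed family split 3 to 1: of 4 tested members 3 were lower and miR-15b-5p higher (log2 0.62). miR-16-5p was at 476 and 617 CPM in SCN against 2619 and 2498 (4.68-fold lower, log2 -2.24 ± 0.14 SE, limma adjusted p = 6.51e-07), and miR-195a-5p at 81 and 84.8 against 376 and 369.9 (log2 -2.17 ± 0.14 SE). miR-22-3p, at 2720 and 2717 CPM, was under its cortex values of 5892 and 7089 (log2 -1.25 ± 0.11 SE). The strands let-7a-1-3p and let-7c-2-3p carried equal values in all 4 libraries, 17.3 and 17.5 CPM in SCN and 63.8 and 59.6 in cortex, and cannot be told apart.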
